A study of Mus musculus with 14 samples.

Results

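The genes described here are those of the mouse major histocompatibility complex (MHC), named H2 in the mouse, together with the genes that assemble, load or regulate its products. They were taken as every gene of the count table whose symbol begins with H2-, plus *B2m*, *Cd74*, *Ciita*, *Tap1*, *Tap2*, *Tapbp* and *Nlrc5*, which gave 52 of 55487 genes. The 45 genes with H2 symbols all lie on chromosome 17 from 33974659 to 37483552 of GRCm38, a stretch of 3.51 megabases. By role, the 52 genes were 2 classical class I heavy chains, 29 nonclassical class I genes, 5 classical class II chains, 7 nonclassical class II chains, 7 partners or regulators and 2 other H2-named genes. Of these, 24 passed the filter on low counts (more than 1 CPM, counts scaled to library size, in at least 3 libraries) and 28 did not.

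RNA was sequenced from 5 pooled intervertebral discs of the tail of each of 14 male mice. The db/db mice (3 libraries) are homozygous and the db/+ littermates (3 libraries) heterozygous for a mutant leptin receptor allele, and both were 12 weeks old. The STZ-HFD mice (4 libraries) were C57BL/6J mice fed a high-fat diet for 4 to 6 weeks, given 100 mg/kg streptozotocin (STZ) once and kept on the diet until 12 weeks after the injection, while the wild-type C57BL/6J mice of the Con+Veh group (4 libraries) received standard chow and citrate buffer vehicle. By the labels the fat share of the diet was 80% of calories, which differs from the share in the written methods. No strain background is given for the db mice. The leptin receptor mutation acts in the whole animal, and STZ injures pancreatic beta cells, so neither model is specific to the disc.

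Class I molecules pair a polymorphic heavy chain with beta 2-microglobulin and show peptides from inside the cell to CD8 T cells and natural killer cells, and nearly every nucleated cell makes them. Class II molecules pair an alpha with a beta chain and show peptides from endocytosed proteins to CD4 T cells, mainly on dendritic cells, macrophages and B cells. Class I promoters respond to NF-kappaB, interferon regulatory factors and the coactivator NLRC5, and class II promoters to the coactivator CIITA, which works through factors bound to conserved X and Y boxes.

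For 4 genes whose values follow, the stretches of 150 bases before the transcription start are shown. The genes are a class I heavy chain, its light chain and an alpha and a beta chain of class II. The stretches are where letters of promoter elements of these classes were searched for. They are RefSeq sequences of GRCm38.p6, 5′ to 3′ on the strand of the gene, and capitals mark every match, on either strand, to GATTGG (Y box), to AG, any base, AACTG and ATG in a row (X box), to TGACGTCA (cyclic AMP response element, CRE), to GGG and CCC with any 5 bases between them (kappaB) or to AANNGAAA (interferon regulatory factor element).
*H2-K1*, chr17:34000348-34000497, minus strand: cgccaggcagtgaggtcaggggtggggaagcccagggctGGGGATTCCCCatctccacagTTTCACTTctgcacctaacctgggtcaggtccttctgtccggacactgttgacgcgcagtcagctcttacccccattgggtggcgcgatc
*B2m*, chr2:122147537-122147686, plus strand: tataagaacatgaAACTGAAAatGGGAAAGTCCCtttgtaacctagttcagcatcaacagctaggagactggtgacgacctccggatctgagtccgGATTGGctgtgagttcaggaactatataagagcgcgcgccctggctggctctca
*H2-Aa*, chr17:34287824-34287973, minus strand: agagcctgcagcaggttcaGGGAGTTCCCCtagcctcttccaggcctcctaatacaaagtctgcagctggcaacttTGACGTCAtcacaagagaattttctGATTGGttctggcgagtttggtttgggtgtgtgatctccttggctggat
*H2-Eb1*, chr17:34305717-34305866, plus strand: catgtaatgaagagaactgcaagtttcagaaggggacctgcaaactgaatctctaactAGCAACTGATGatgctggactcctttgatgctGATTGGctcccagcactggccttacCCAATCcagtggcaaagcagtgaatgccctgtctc
The *H2-K1* stretch held a kappaB match followed by an interferon element, and the *B2m* stretch held an interferon element, a kappaB match and, nearer the start, a Y box. The *H2-Eb1* stretch held the X box and then Y box matches on both strands, and the *H2-Aa* stretch held a kappaB match, a CRE and, nearest the start, a Y box. The 250 bases before the start were searched in 18 windows, which RefSeq gave for 16 of the 24 genes. The X box was found in 2 of these windows, those of *H2-Eb1* and *H2-DMb1*, against 0.134% of 32851 windows in the genome, and the CRE in 1 against 1.55%. The Y box was found in 15 against 14.6%, the kappaB letters in 9 against 12.2% and the interferon element in 11 against 21.3%. A match of letters describes the sequence and was not tested as a binding site. The search took fixed letters, so a stretch without a match, such as *H2-Aa* for the X box, may still hold a variant of the element.

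In these discs the class I light chain was the most abundant member per length. Levels per length are given as CPM per kilobase of annotated exon, averaged over the 14 libraries. On that scale *B2m* was at 142 (range 62.6 to 283), *H2-D1* at 26.0 (7.22 to 41.4), *Tapbp* at 23.2 (9.35 to 37.0) and *H2-K1* at 11.7 (4.44 to 19.1). The class II genes were lower, with *Cd74* at 5.54, *H2-Aa* at 3.81, *H2-Eb1* at 3.22 and *H2-Ab1* at 3.00, and their ranges over libraries overlapped one another. The 7 nonclassical class I genes that passed the filter lay between 0.187 (*H2-Q7*) and 1.56 (*H2-T22*). The coactivator genes *Nlrc5* and *Ciita* were at 0.371 and 0.163. Of 10 marker genes of nucleus pulposus and annulus, 9 had counts in every library and *Shh* was at 0 in 8 of them. Their summed level was 14631 to 42429 CPM in the db cohort and 2013 to 5925 CPM in the STZ-HFD cohort.

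Libraries held 16076908 to 58943169 counts, of which 28.1% to 60.2% fell on ribosomal RNA genes. The library of STZ-HFD replicate 1 stood apart from the rest. It had the fewest counts but 42626 genes with at least 1 count, against 25194 to 29924 in the other 13 libraries, and 1320 of 1410 olfactory receptor genes were detected in it, against 188 to 341. It also had counts on 24 of the 28 MHC genes that did not pass the filter, against 10 to 16 elsewhere. It had a library scaling factor (TMM, used for CPM) of 1.58, against 0.693 to 0.742 in the other STZ-HFD libraries. Where it held the highest or lowest value of a tested gene described below, the log2 fold change without it is given too.

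Under the fit used here (limma's voomWithQualityWeights, all 14 libraries, 16915 genes), calling a gene took a Benjamini-Hochberg adjusted p under 0.05 together with a log2 fold change of 1 or more in size. In db/db against db/+ discs, 0 of the 24 MHC genes were called in either direction, where 1.23% of all genes were called higher and 0.432% lower. In STZ-HFD against Con+Veh discs, 0 were called higher and 2 lower, the class II alpha chain gene *H2-Aa* and the light chain gene *B2m*, where 1.30% of all genes were called higher and 1.31% lower. For the difference of these contrasts, 0 genes were called, where 0.816% of all genes were called as higher in the db contrast and 0.952% as lower. At an unadjusted p under 0.05, 5 of the 24 genes were lower in db/db and 0 higher, against 10.4% and 10.7% of all genes, and 6 were lower in STZ-HFD and 0 higher, against 9.54% and 8.34%. The median log2 fold change of the 24 genes was -0.35 in db/db and -0.23 in STZ-HFD, beside -0.04 over all genes in each contrast. By sign alone, 19 of the 24 genes were negative and 5 positive in db/db, against 52.7% and 47.3% of all genes, and 15 were negative and 9 positive in STZ-HFD, against 52.8% and 47.2%. The difference of the contrasts was positive for 10 and negative for 14, against 51.5% and 48.5%, and at an unadjusted p under 0.05 for 4 (*B2m*, *H2-Aa*, *H2-D1*, *Tapbp*) and 2 (*H2-Q6*, *Nlrc5*), against 8.94% and 8.35%.

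**Figure D1:**
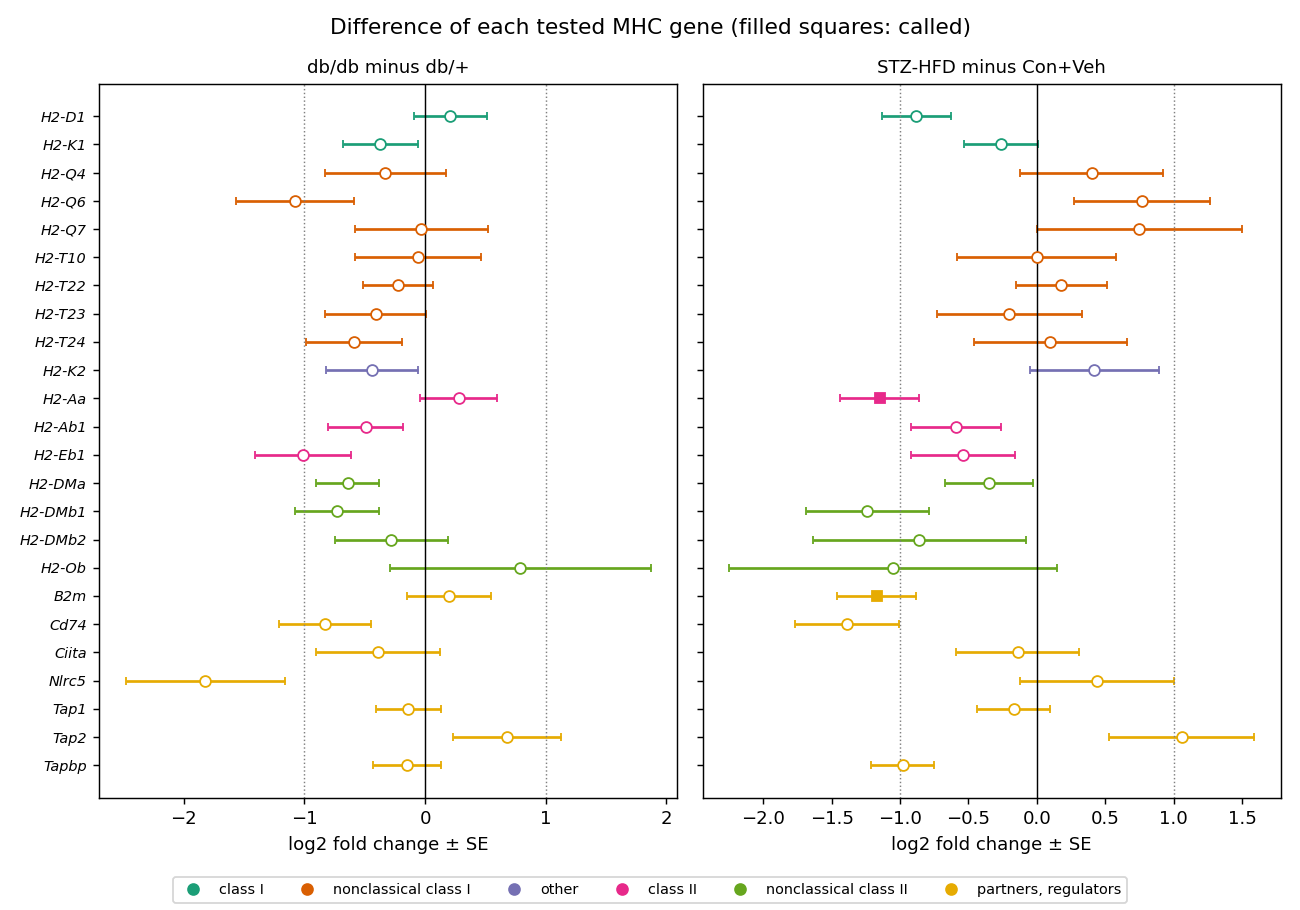
Log2 fold change with its standard error for the 24 tested MHC genes, db/db against db/+ on the left and STZ-HFD against Con+Veh on the right, coloured by class. Filled squares are called genes, which are *H2-Aa* (-1.15) and *B2m* (-1.17) on the right, and dotted lines mark an absolute log2 fold change of 1.

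Among the class I genes, *B2m* was called lower in STZ-HFD discs under the fit used here, although its groups overlapped. The heavy chain genes did not pass the call. Beta 2-microglobulin is the light chain shared by class I molecules. *B2m* (ENSMUSG00000060802, chromosome 2 from 122147686 to 122153083) was at 53.8, 69.7, 66.0 and 141 CPM in STZ-HFD and at 92.7, 119, 243 and 167 CPM in Con+Veh. STZ-HFD replicates 1, 2 and 3 lay below every Con+Veh library, while replicate 4 lay inside the Con+Veh range. The means were 82.6 ± 39.5 (SD, n = 4) and 156 ± 66.1 (SD, n = 4). The fitted log2 fold change, in which libraries carry quality weights, was -1.17 (SE 0.29, adjusted p = 0.0331 by limma, Benjamini-Hochberg). It was -0.95 without quality weights, -0.91 with edgeR and -0.89 with DESeq2, each short of the fold minimum and not called. The Con+Veh library of highest value, replicate 3, had the largest weight, 3.05. In the db cohort *B2m* was at 156, 150 and 101 CPM in db/db and at 140, 119 and 90.7 CPM in db/+, with a log2 fold change of 0.20 (SE 0.35). The db groups overlapped, and the sign of that value turned under some settings. In bulk RNA, fewer cells that express a gene and less RNA per cell cannot be told apart.

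*H2-D1* and *H2-K1* encode the classical class I heavy chains. *H2-D1* (ENSMUSG00000073411, chromosome 17 from 35262730 to 35267499) was at 18.6, 70.0, 52.0 and 42.1 CPM in STZ-HFD and at 70.2, 50.9, 90.6 and 88.2 CPM in Con+Veh. The groups overlapped, and the log2 fold change of -0.88 (SE 0.25) missed both parts of the call (adjusted p = 0.0571 by limma, Benjamini-Hochberg). *H2-D1* was called when STZ-HFD replicate 2 was left out, at -1.03. *H2-K1* (ENSMUSG00000061232, chromosome 17 from 33996017 to 34000347) was at 13.0, 56.1, 40.9 and 33.9 CPM in STZ-HFD and at 42.0, 26.6, 42.6 and 51.4 CPM in Con+Veh, with a fitted log2 fold change of -0.26 (SE 0.27). Its highest value and its lowest value of these 8 libraries were both in STZ-HFD, the lowest in replicate 1. Without that replicate, which was also the lowest for *H2-D1*, the log2 fold change was -0.10 for *H2-K1* and -0.74 for *H2-D1*, and neither was called.

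In the db cohort *H2-D1* was at 77.3, 63.9 and 107 CPM in db/db and at 79.1, 74.3 and 55.4 CPM in db/+, and *H2-K1* at 21.7, 30.1 and 23.7 against 39.8, 36.9 and 21.3. Both pairs of groups overlapped, with log2 fold changes of 0.21 (SE 0.30) and -0.37 (SE 0.31). Over windows of 100 bases, 4.64% of the *H2-D1* transcript and 0% of the *H2-K1* transcript are shared with another gene.

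The ratio of the heavy chains within a library does not depend on the scaling of libraries. The counts of *H2-D1* over those of *H2-K1* were 1.43, 1.25, 1.27 and 1.24 in STZ-HFD and 1.67, 1.91, 2.13 and 1.72 in Con+Veh, without overlap. In db/+ the ratio was 1.99, 2.01 and 2.60, and in db/db 3.56, 2.12 and 4.50, with overlap. This ratio was chosen after its values were seen and carries no test. With the transcript estimates the ranges were 1.19 to 1.55 in STZ-HFD and 1.53 to 2.35 in Con+Veh, which overlapped at their ends. The transcript table used here has no row for a coding transcript of each gene, *H2-D1-203* and *H2-K1-201*.

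**Figure D2:**
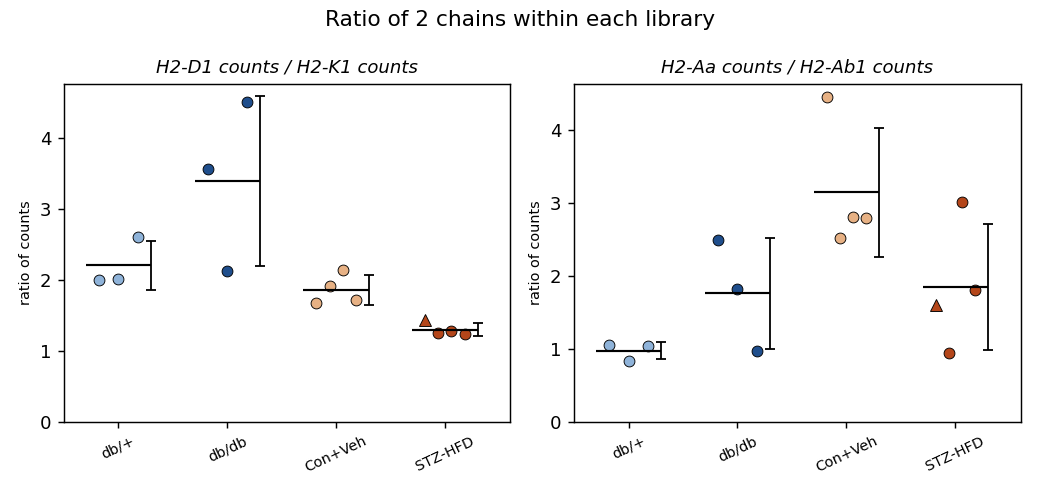
Ratio of *H2-D1* to *H2-K1* counts (left) and of *H2-Aa* to *H2-Ab1* counts (right) in each library, with group means (lines) and SD (bars), and STZ-HFD replicate 1 as a triangle. On the left the STZ-HFD libraries lie at 1.24 to 1.43 and the Con+Veh libraries at 1.67 to 2.13, and on the right the db/+ libraries lie at 0.833 to 1.05 and the Con+Veh libraries at 2.52 to 4.45.

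Genes for class I peptide loading were examined next. Tapasin, encoded by *Tapbp*, bridges empty class I molecules to the peptide transporter. *Tapbp* (ENSMUSG00000024308, chromosome 17 from 33915899 to 33929292) was at 33.9, 67.3, 53.1 and 51.0 CPM in STZ-HFD and at 121, 51.0, 105 and 115 CPM in Con+Veh. Con+Veh replicate 2 lay inside the STZ-HFD range, and the other 3 Con+Veh libraries lay above it. The log2 fold change was -0.98 (SE 0.23, adjusted p = 0.0255 by limma, Benjamini-Hochberg), which missed the fold minimum of the call. *Tapbp* was called without Con+Veh replicate 2, at -1.09, and without STZ-HFD replicate 2, at -1.06, and it was at -0.92 without STZ-HFD replicate 1, its lowest library. Its db values of 76.6, 69.0 and 134 CPM in db/db enclosed those of db/+ (101, 94.0 and 105 CPM).

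The transporter that carries peptides into the endoplasmic reticulum is formed by the products of *Tap1* (ENSMUSG00000037321, chromosome 17 from 34187553 to 34197225) and *Tap2* (ENSMUSG00000024339, chromosome 17 from 34203527 to 34216321). *Tap1* lay between 2.74 and 7.55 CPM in the 14 libraries, and the groups of each model overlapped. *Tap2* was at 1.95, 1.23 and 1.02 CPM in db/db and at 0.841, 0.852 and 0.808 CPM in db/+. It was the 1 gene of the 24 with every db/db library above every db/+ library, where 14.1% of all genes were so placed, and it was not called. In STZ-HFD *Tap2* was at 2.43, 3.82, 2.05 and 1.01 CPM against 1.28, 1.45, 0.611 and 0.869 CPM in Con+Veh, with a fitted log2 fold change of 1.06 (SE 0.53, adjusted p = 0.309 by limma, Benjamini-Hochberg). The strand used in counting is not given in the sources, and exons of *Tap1*, *Tap2* and *Tapbp* overlap exons of other genes, mostly on the opposite strand, so their counts are uncertain.

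*Nlrc5* (ENSMUSG00000074151, chromosome 8 from 94434356 to 94527272) encodes the class I coactivator. In db/db it was at 1.42, 2.05 and 0.157 CPM and in db/+ at 2.52, 3.15 and 2.77 CPM, so that the groups did not overlap. Its log2 fold change of -1.82 (SE 0.66, adjusted p = 0.134 by limma, Benjamini-Hochberg) was the most negative of the 24 genes in that contrast and was not called. Without db/db replicate 3, the library with the lowest value, the log2 fold change was -0.71. In the other cohort *Nlrc5* was at 9.29, 4.26, 4.41 and 1.84 CPM in STZ-HFD and at 6.00, 1.45, 2.82 and 1.90 CPM in Con+Veh, with overlap, the highest value being that of STZ-HFD replicate 1. The log2 fold change was 0.44 with that library and 0.38 without it.

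Nonclassical class I genes of the Q, T and M regions encode molecules with restricted expression or ligands for other lymphocytes. Of 29 such genes, 7 passed the filter and 0 were called in either model. Their median log2 fold change was -0.33 in db/db and 0.18 in STZ-HFD. *H2-Q6* was at 1.12, 1.97 and 0.691 CPM in db/db and at 2.28, 3.86 and 1.57 CPM in db/+, a log2 fold change of -1.08 (SE 0.49, adjusted p = 0.221 by limma, Benjamini-Hochberg). The db groups overlapped through db/db replicate 2 and db/+ replicate 3. In STZ-HFD *H2-Q6* was at 0.781, 5.19, 4.13 and 2.56 CPM against 3.64, 1.06, 1.74 and 2.28 CPM in Con+Veh, where the groups overlapped and STZ-HFD replicate 1 was lowest. The log2 fold change was 0.77 with that library and 0.96 without it, and neither was called. Of the *H2-Q6* transcript 10.8% is shared with other genes, mostly *H2-Q7*, so its counts are uncertain. *H2-T22* lay between 3.52 and 8.54 CPM and *H2-T24* between 1.36 and 8.80 CPM over the 14 libraries, with overlap in each model. Of the 22 genes that did not pass, *H2-M10.1*, *H2-M10.4* and *H2-Q3* had counts in STZ-HFD replicate 1 and in no other library, with 4, 8 and 4 counts.

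Among the class II genes, the summed level of the classical chains was lower in STZ-HFD than in Con+Veh discs in every library, and *H2-Aa* made up most of the gap. The sum over the 5 chain genes was 17.8, 19.4, 27.5 and 25.9 CPM in STZ-HFD and 36.7, 35.4, 47.7 and 42.4 CPM in Con+Veh. The means were 22.6 ± 4.76 (SD, n = 4) and 40.5 ± 5.64 (SD, n = 4), and without STZ-HFD replicate 1 the first was 24.2 ± 4.31 (SD, n = 3). In the db cohort the sum was 15.5, 33.6 and 20.7 CPM in db/db and 33.1, 30.0 and 17.2 CPM in db/+, with overlap. The sums of classical class I heavy chains overlapped in both models, at 81.7 ± 39.3 (SD, n = 4) in STZ-HFD, 116 ± 28.0 (SD, n = 4) in Con+Veh, 108 ± 19.7 (SD, n = 3) in db/db and 102 ± 22.5 (SD, n = 3) in db/+. Without STZ-HFD replicate 1, whose class I sum was 31.7 CPM, the STZ-HFD mean was 98.3 ± 25.5 (SD, n = 3).

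**Figure D3:**
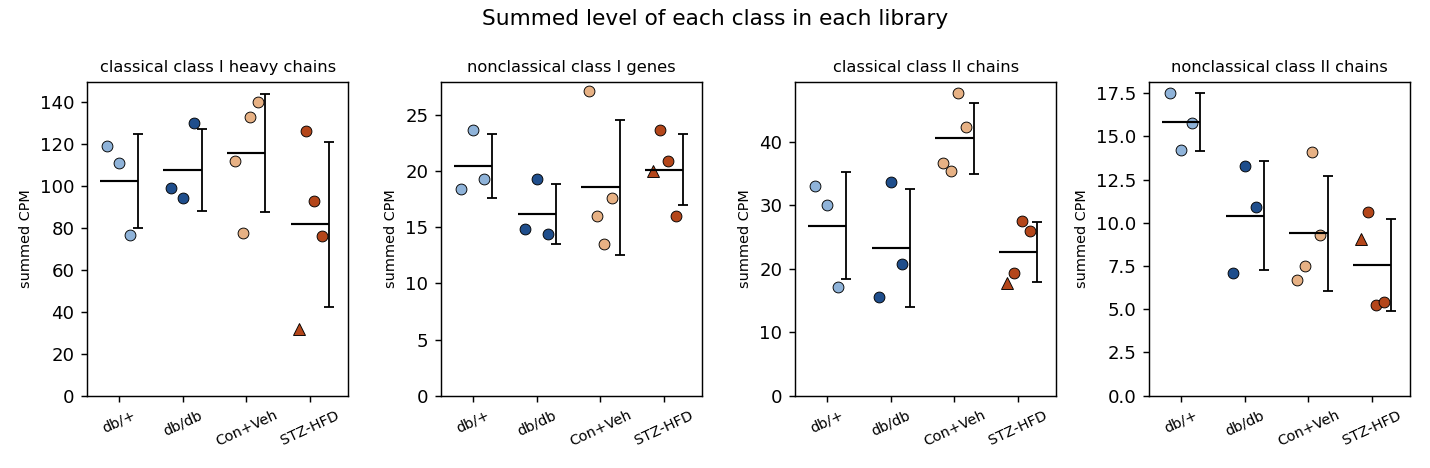
Summed CPM of each class in each library, with group means (lines) and SD (bars), and STZ-HFD replicate 1 as a triangle. For the classical class II chains the STZ-HFD libraries lie at 17.8 to 27.5 CPM and the Con+Veh libraries at 35.4 to 47.7 CPM.

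*H2-Aa* (ENSMUSG00000036594, chromosome 17 from 34282744 to 34287823) encodes the alpha chain of the class II molecule I-A. It had 5.80, 6.81, 16.2 and 12.3 CPM in STZ-HFD and 22.6, 20.6, 27.6 and 25.5 CPM in Con+Veh. Every STZ-HFD library lay below every Con+Veh library, which held for 1 of the 24 genes and 2.77% of all genes, while 0 of the 24 and 1.97% of all genes lay above throughout. The means were 10.3 ± 4.87 (SD, n = 4) and 24.1 ± 3.10 (SD, n = 4), with a fitted log2 fold change of -1.15 (SE 0.29, adjusted p = 0.0372 by limma, Benjamini-Hochberg). In the db cohort *H2-Aa* was at 9.90, 18.1 and 8.20 CPM in db/db and at 12.5, 9.55 and 6.98 CPM in db/+, with overlap and a log2 fold change of 0.28 (SE 0.32). The difference of the contrasts was 1.43 for *H2-Aa* (SE 0.43, adjusted p = 0.0958 by limma, Benjamini-Hochberg) and 1.37 for *B2m* (SE 0.46, adjusted p = 0.128), so a different response in the 2 models was not called for either gene. Without STZ-HFD replicate 4 the difference was called for *B2m*, at 1.78.

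The beta chains *H2-Ab1* and *H2-Eb1* were lower in mean level in STZ-HFD by less, and their groups overlapped. *H2-Ab1*, the beta chain that pairs with the *H2-Aa* product (ENSMUSG00000073421, chromosome 17 from 34257689 to 34269419), was at 3.62, 7.26, 5.37 and 6.81 CPM in STZ-HFD and at 5.08, 8.17, 9.82 and 9.13 CPM in Con+Veh, with a fitted log2 fold change of -0.59 (SE 0.33). *H2-Eb1*, the beta chain of I-E (ENSMUSG00000060586, chromosome 17 from 34305867 to 34316674), was at 4.52, 5.30, 5.93 and 6.78 CPM in STZ-HFD and at 8.94, 6.48, 10.1 and 7.50 CPM in Con+Veh, with a fitted log2 fold change of -0.54 (SE 0.38). In both genes the lowest of the 8 values was that of STZ-HFD replicate 1, and without it the log2 fold changes were -0.55 and -0.51. In db/db *H2-Eb1* was at 1.57, 5.43 and 4.01 CPM against 8.68, 9.03 and 3.48 CPM in db/+, a log2 fold change of -1.01 (SE 0.40, adjusted p = 0.166 by limma, Benjamini-Hochberg). It was the 1 gene of the 24 that edgeR and DESeq2 each placed at an unadjusted p under 0.05 in that contrast. *H2-Ab1* was at 3.98, 9.92 and 8.50 CPM in db/db and at 11.9, 11.5 and 6.73 CPM in db/+, a log2 fold change of -0.49 (SE 0.31).

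*H2-Ea* encodes the alpha chain of I-E and is known to be silent in the H2-b haplotype that C57BL/6 mice carry. It had 75 counts (3.08 CPM) in STZ-HFD replicate 1 and 0 counts in the other 13 libraries. In the 6 db libraries, 0 counts allow a level of up to 0.0431 to 0.0615 CPM at 3 counts. *H2-Eb2* had 55 counts in all, in 9 libraries, and did not pass the filter.

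**Figure D4:**
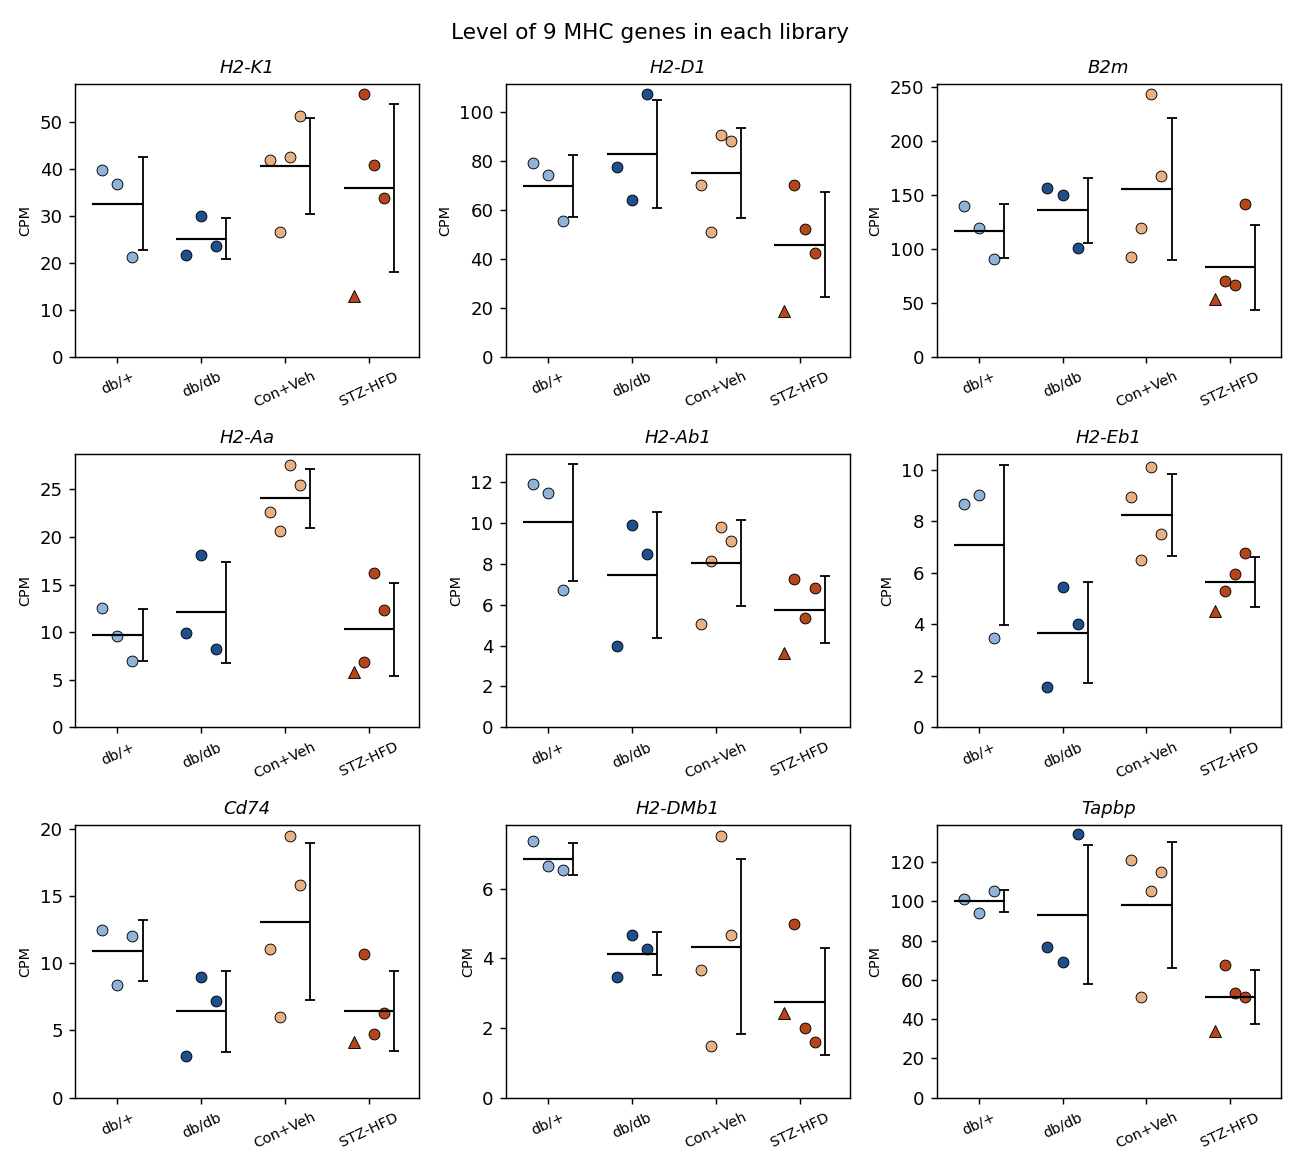
CPM of 9 MHC genes in each library, with group means (lines) and SD (bars), and STZ-HFD replicate 1 as a triangle. For *H2-Aa* the STZ-HFD libraries lie at 5.80 to 16.2 CPM, below the Con+Veh libraries at 20.6 to 27.6 CPM, while the groups of both models overlap for *B2m*, *H2-K1* and *H2-D1*.

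*Cd74* (ENSMUSG00000024610, chromosome 18 from 60803848 to 60812652) encodes the invariant chain, which occupies the class II groove until the endosome. It was at 4.11, 10.7, 4.75 and 6.33 CPM in STZ-HFD and at 11.1, 5.98, 19.5 and 15.8 CPM in Con+Veh. The groups overlapped through STZ-HFD replicate 2 and Con+Veh replicate 2, and the log2 fold change of -1.39 (SE 0.38, adjusted p = 0.0532 by limma, Benjamini-Hochberg) was not called. *Cd74* was called in 6 of 28 alternative settings, leaving aside transcript estimates, namely without STZ-HFD replicate 2 (-1.51), Con+Veh replicate 2 (-1.52), Con+Veh replicate 1 (-1.46), db/db replicate 1 (-1.38) or db/db replicate 2 (-1.39) and with GC correction (-1.30). The db/db replicates are not in this contrast. Over these 28 settings the log2 fold change of *Cd74* ran from -1.52 to -0.34, with -0.95 without Con+Veh replicate 3, -0.89 without quality weights and -0.34 with a pan-leukocyte score as a covariate. Without STZ-HFD replicate 1, its lowest library, it was -1.37. In db/db *Cd74* was at 3.12, 8.96 and 7.18 CPM against 12.5, 8.35 and 12.0 CPM in db/+, a log2 fold change of -0.83 (SE 0.38, adjusted p = 0.223 by limma, Benjamini-Hochberg).

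*H2-DMa* (ENSMUSG00000037649, chromosome 17 from 34119541 to 34139101) and *H2-DMb1* (ENSMUSG00000079547, chromosome 17 from 34153072 to 34160230) encode chains of the molecule that exchanges the invariant chain fragment for peptide. In db/db every library was below every db/+ library for 4 of the 24 genes, *H2-DMa*, *H2-DMb1*, *Nlrc5* and the pseudogene *H2-K2*, where 11.7% of all genes were so placed. *H2-DMa* was at 3.13, 5.89 and 4.71 CPM in db/db and at 7.34, 6.54 and 7.23 CPM in db/+, a log2 fold change of -0.64 (SE 0.26, adjusted p = 0.171 by limma, Benjamini-Hochberg). *H2-DMb1* was at 3.45, 4.67 and 4.27 CPM in db/db and at 7.37, 6.66 and 6.53 CPM in db/+, a log2 fold change of -0.73 (SE 0.35, adjusted p = 0.239 by limma, Benjamini-Hochberg). Neither gene was called. The sum over the 7 nonclassical class II chains was 7.07, 13.3 and 10.9 CPM in db/db and 17.5, 14.2 and 15.8 CPM in db/+, also without overlap. Most of that sum came from *H2-DMa* and *H2-DMb1*, so it repeats their values and is not a separate result. In STZ-HFD *H2-DMb1* was at 2.43, 4.99, 1.99 and 1.61 CPM against 3.67, 1.48, 7.52 and 4.67 CPM in Con+Veh, with a fitted log2 fold change of -1.24 (SE 0.45, adjusted p = 0.145 by limma, Benjamini-Hochberg), and it was called without Con+Veh replicate 2, the lowest of its group, at -1.44. Without Con+Veh replicate 3, the highest of its group, the value was -0.53, and without quality weights it was -0.39. Of the *H2-DMb1* transcript 13.7% is shared with *H2-DMb2*, and *H2-DMa* overlaps *Brd2* on the other strand, so both counts are uncertain.

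*Ciita* (ENSMUSG00000022504, chromosome 16 from 10480059 to 10528418) encodes the class II coactivator. It was at 3.86, 1.82, 1.52 and 1.61 CPM in STZ-HFD and at 1.44, 0.603, 2.16 and 2.99 CPM in Con+Veh, with the highest value in STZ-HFD replicate 1, and the log2 fold change was -0.14 with that library and -0.24 without it. In the db cohort it was at 0.488, 1.19 and 0.864 CPM in db/db and at 1.09, 0.904 and 1.26 CPM in db/+. The groups overlapped in both models, and *Ciita* was not called.

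Genes of the same pathways outside the 52 were called in neither model in 5 lists. These were 12 genes of class I peptide loading and the immunoproteasome, 10 tested genes of class II peptide processing, 7 genes for factors of class I and II promoters, 8 tested genes of interferon gamma signaling and 11 tested interferon gamma targets such as the guanylate-binding proteins. Their median log2 fold changes lay between -0.40 (interferon gamma targets in db/db) and 0.22 (interferon gamma signaling in db/db). At an unadjusted p under 0.05, the lists held 5 higher and 7 lower genes in db/db and 3 higher and 6 lower genes in STZ-HFD, all lists together. Of all genes, 10.7% were higher and 10.4% lower at that threshold in db/db, and 8.34% and 9.54% in STZ-HFD. Calls over all genes were 1.23% higher and 0.432% lower in db/db, and 1.30% and 1.31% in STZ-HFD.

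Some macrophage and pan-leukocyte genes were called lower in STZ-HFD, and 0 genes of the other leukocyte lists were called. Over all genes, 1.31% were called lower and 1.30% higher in that contrast. Of 11 macrophage genes, 4 were called lower and all 11 had a negative log2 fold change. Their summed level was 121 to 214 CPM in STZ-HFD and 177 to 346 CPM in Con+Veh, with overlap. The 4 were *Cd68* (log2 fold change -1.63), *C1qc* (-1.19), *C1qb* (-1.11) and *Lyz2* (-1.02), and all 11 had counts in every library. Of 5 tested pan-leukocyte genes 2 were called lower, with sums of 27.6 to 43.2 CPM and 43.8 to 83.9 CPM. Of 4 tested dendritic cell genes and 4 tested B cell genes 0 were called, with sums of 20.6 to 33.9 against 19.1 to 29.6 CPM and 0.653 to 13.5 against 2.99 to 8.65 CPM. The upper ends of 33.9 and 13.5 CPM were those of STZ-HFD replicate 1, the library that stood apart, and the other STZ-HFD libraries lay lower. The lowest macrophage sum, 121 CPM, was also that of replicate 1. With a pan-leukocyte score as a covariate, the log2 fold change was -0.79 for *H2-Aa*, -0.50 for *B2m*, -0.34 for *Cd74*, -1.11 for *Tapbp* and -1.04 for *H2-D1*, and 0 of the 24 genes were called in STZ-HFD. Over all genes this covariate left 6 called higher and 11 lower, where 220 and 221 were called without it. The score ran from 1.162 to 1.909 in STZ-HFD and from 1.889 to 2.689 in Con+Veh, so it nearly separated the groups. Score and treatment can therefore hardly be told apart in this fit, and the part of leukocytes in the MHC values was not tested. Of the other lists, 4 of 9 tested disc genes were called lower (2013 to 3530 against 3987 to 5925 CPM) and 3 of 8 skeletal muscle genes higher (6646 to 18545 against 6632 to 9129 CPM), and their part in the result was not tested. The muscle sum of 6646 CPM was that of STZ-HFD replicate 1. In db/db 0 macrophage and 0 pan-leukocyte genes were called in either direction, and 3 of 6 adipocyte genes were called higher (277 to 517 against 182 to 392 CPM). Of 6 endothelial genes 1 was called higher, *Tek* (log2 fold change 1.31), with sums of 267 to 292 against 171 to 237 CPM. Of 8 skeletal muscle genes 1 was called lower, *Myh1* (-1.66), and all 8 were negative (median -0.97), with sums of 2582 to 4307 against 4027 to 7763 CPM. Over all genes, 1.23% were called higher and 0.432% lower in db/db. The part of these cell types in the db/db values was not tested.

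The calls of *H2-Aa* and *B2m* in STZ-HFD depended on the test and on single libraries, although the log2 fold changes were negative in every alternative setting counted. *H2-Aa* was called in 13 of 28 settings, leaving aside transcript estimates (log2 fold change -1.49 to -0.79), and *B2m* in 15 of 29 (-1.58 to -0.50). These settings include leaving out single db/db or db/+ libraries, which are not in this contrast, and the same fit without the fold minimum. Such settings could hardly remove a call, so the tallies do not measure how firm the calls are. With edgeR (quasi-likelihood) 0 of the 24 genes were called in STZ-HFD, with 1 higher (*Tap2*) and 5 lower at an unadjusted p under 0.05, and over all genes it called 6 higher and 23 lower. DESeq2 called *H2-Aa* alone among the 24, at a log2 fold change of -1.21. *H2-Aa* was no longer called without Con+Veh replicate 3 (-1.03) or 4 (-1.13) or any of STZ-HFD replicates 1 (-1.03), 2 (-1.04), 3 (-1.49) and 4 (-1.32), and *B2m* without Con+Veh replicate 3 (-0.74) or 4 (-1.19) or STZ-HFD replicate 2 (-1.01) or 3 (-1.02). Without STZ-HFD replicate 1, the library that stood apart, *B2m* was called at -1.16. The voom weights ran from 0.275 (Con+Veh replicate 1) to 3.05 (Con+Veh replicate 3).

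**Figure D5:**
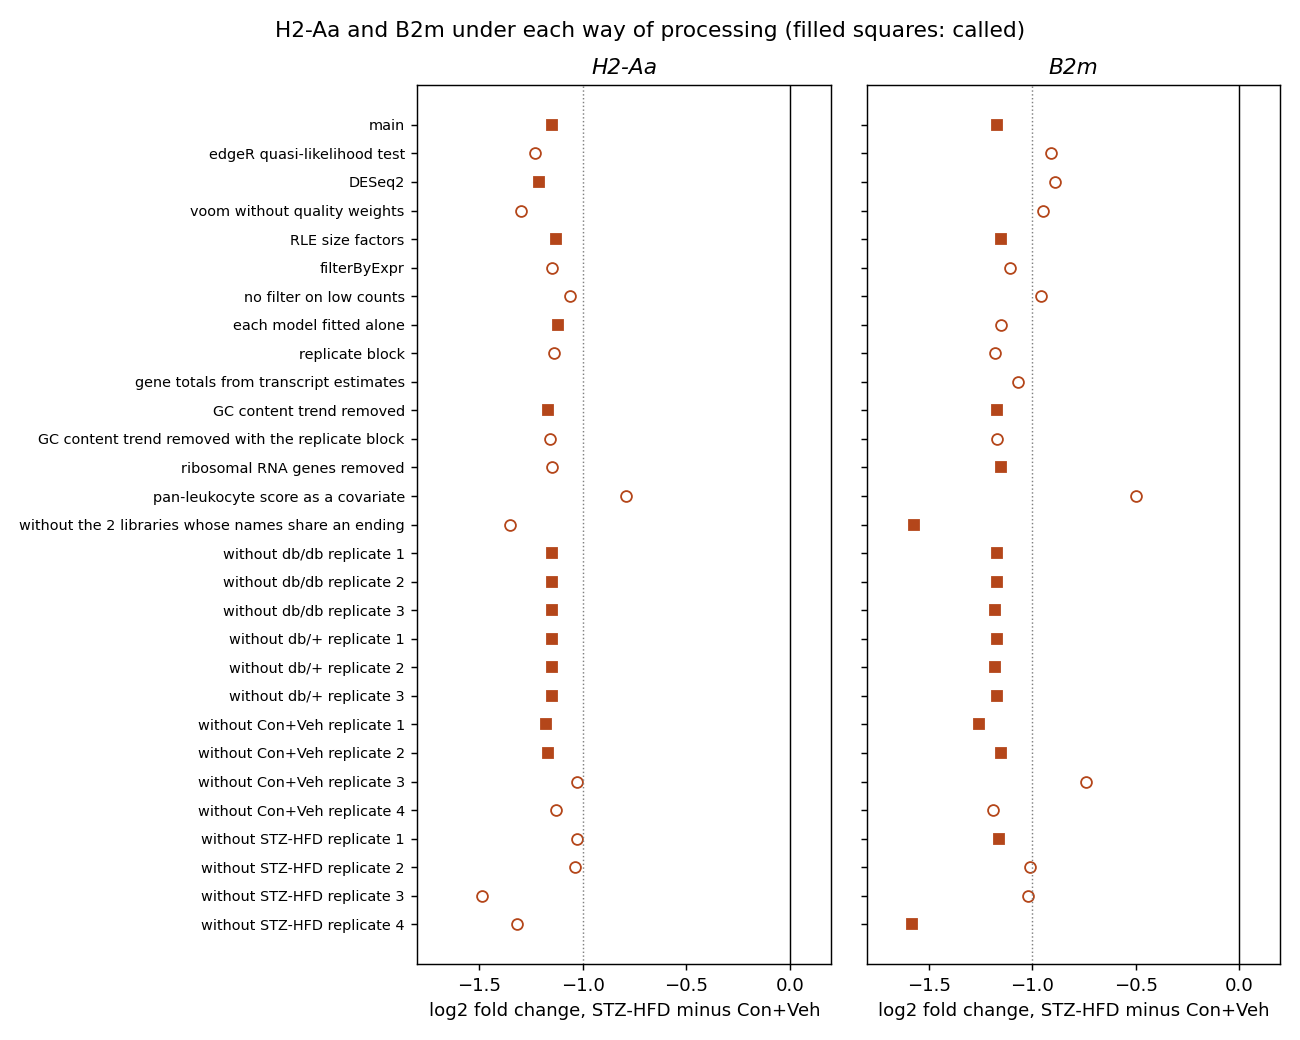
Log2 fold change of *H2-Aa* (left) and *B2m* (right) in STZ-HFD against Con+Veh under each way of processing, the fit as reported (main) on top. Filled squares are settings in which the gene was called, and values run from -1.49 to -0.79 for *H2-Aa*, which has no point for transcript estimates, and from -1.58 to -0.50 for *B2m*.

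The transcript estimates could not serve as a check of *H2-Aa* or *Cd74* and are left out of their counts of settings. Salmon estimates summed to 1.63% of the *H2-Aa* gene counts and 11.2% of the *Cd74* counts, against a median of 27.3% over 14548 tested genes and 32.6% for *B2m*, 35.2% for *H2-Ab1* and 38.4% for *H2-Eb1*. The transcript table used here has no row for the coding transcripts *H2-Aa-201* and *Cd74-201*. For *B2m*, whose single transcript has a row, the transcript estimates gave a log2 fold change of -1.07 that was not called (adjusted p = 0.156 by limma, Benjamini-Hochberg).

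The controls of the 2 cohorts were compared because MHC haplotypes differ between laboratory strains which may affect how reads map between the cohorts. They are the same control libraries as in the contrasts above. In db/+ against Con+Veh discs 0 of the 24 genes were called higher and 1 lower, *H2-Aa*, where 2.52% of all genes were called higher and 4.10% lower. At an unadjusted p under 0.05, 2 were higher and 2 lower, against 12.3% and 14.5%, and by sign 12 were positive and 12 negative, against 51.2% and 48.8%. Every db/+ library was above every Con+Veh library for 2 genes, *H2-DMa* and *H2-T24*, and below for 1, *H2-Aa*, against 9.36% and 8.94% of all genes. Its 3 db/+ values of 6.98 to 12.5 CPM lay below the 4 Con+Veh values of 20.6 to 27.6 CPM, a log2 fold change of -1.46 (SE 0.29, adjusted p = 0.00564 by limma, Benjamini-Hochberg). This call was kept in 25 of 27 alternatives, transcript estimates left aside, some of which only leave out libraries that are not in this comparison. It was not kept with edgeR (-1.32) or without Con+Veh replicate 3 (-1.34). *H2-Ab1*, its partner chain, had a log2 fold change of 0.13 (SE 0.30), whose sign turned under some settings. The counts of *H2-Aa* over those of *H2-Ab1* were 1.05, 0.833 and 1.04 in db/+, 2.49, 1.82 and 0.965 in db/db, 4.45, 2.52, 2.81 and 2.79 in Con+Veh and 1.60, 0.938, 3.01 and 1.81 in STZ-HFD. This ratio was therefore lower in db/+ than in Con+Veh in every library, and STZ-HFD spanned values of both. It holds the *H2-Aa* counts that were called in the same comparison, so it is not a separate result and carries no test. The disc marker genes summed to 28477 to 42429 CPM in db/+ and 3987 to 5925 CPM in Con+Veh, and ribosomal RNA took 28.9% to 39.7% and 45.8% to 60.2% of counts. The library scaling factors (TMM) were 1.06 to 1.37 in db/+ and 0.764 to 0.818 in Con+Veh, so CPM values of the cohorts depend on this scaling. Cohort, age, diet, vehicle, tissue make-up, RNA composition and any difference in strain background or haplotype cannot be told apart in this comparison.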

How the data were processed

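RNA-seq libraries from the discs of 14 mice were analysed, each from 1 mouse by the study's methods, in the groups db/db (n = 3), db/+ (n = 3), STZ-HFD (n = 4) and Con+Veh (n = 4). The authors aligned reads with STAR to the Ensembl mouse annotation and deposited whole-number gene counts made with featureCounts, without normalization. They also deposited estimated counts per transcript made with Salmon, which were rounded after summing per gene and used in 1 alternative. The strand setting is not given in the sources used here. The gene table held 55774 lines, of which 287 repeated an identifier with identical values and were used once. Positions came from GENCODE M21 (GRCm38), in which 55227 genes were found.

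From the gene counts, TMM factors (edgeR 4.0.16) gave CPM, and 16915 genes above 1 CPM in 3 or more libraries were kept. limma 3.58.1 (voomWithQualityWeights, as in the study's methods) was fitted with 1 mean per group in R 4.3.3, with Benjamini-Hochberg adjustment over all genes within each contrast. Calls took an adjusted p under 0.05 together with a log2 fold change of 1 or more in size. The fit was tested on simulated data before use. All simulated libraries shared the same spread, so that test does not bear on libraries of uneven quality such as these. The fit was repeated with DESeq2 1.42.0, with edgeR (quasi-likelihood), with voom without weights, RLE factors, other filters, each model alone, a replicate block, transcript totals, GC correction over 20 bins, removal of ribosomal RNA genes, a leukocyte covariate, no fold minimum and leaving out libraries. By chi-square over genes, every pair of replicates differed by more than the sampling noise. A level of 3 counts corresponds to 0.0431 to 0.163 CPM, a floor that covers counting error only. Of all counts from 1 to 20, 70.4% were even. Genes named with values were the classical chains, the partners and regulators, *H2-DMa*, *H2-DMb1*, the 3 nonclassical class I genes of highest mean CPM and any called gene. The members and lists were chosen with earlier results of these data known.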

Additional observations from a re-analysis of the deposited data

Results flagged for a closer look

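In STZ-HFD replicate 1, *H2-Ea* reached 3.08 CPM against 0 in the other STZ-HFD libraries, and *Ciita* reached 3.86 CPM against 1.52 to 1.82 CPM. Each value lay farther from its group than Dixon's critical ratio of 0.829 for 4 libraries allows. For *H2-Ea* the other STZ-HFD values were all 0, so any count in replicate 1 would have passed that ratio. In all, 35 groups of 4 values were examined and 2 such values were found. Chance alone gives about 1 in 20 groups, which is near the share found. Both were in the library that detected 1320 of 1410 olfactory receptor genes, and the part of that in these values was not tested.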

How the results depend on the processing

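In db/db against db/+, 0 MHC genes were called in either direction under each alternative run. In STZ-HFD, 0 were called higher under each, while the 2 called lower became 0 with edgeR's quasi-likelihood test, voom without quality weights, filterByExpr, no filter, the replicate block, GC correction with the block, transcript totals or the leukocyte covariate. They became 1 with DESeq2, with each model fitted alone (*H2-Aa* in both), without ribosomal RNA genes and on leaving out 2 libraries with a common ending in their names (*B2m* in both), and 3 with GC correction (*Cd74* added) or no fold minimum (*Tapbp* added). Over all genes 220 higher and 221 lower calls in STZ-HFD became 3 and 16 without quality weights, 5 and 33 with the block, 6 and 23 with edgeR and 6 and 11 with the leukocyte covariate. Leaving out each library in turn gave 0 to 5 lower genes (5 without Con+Veh replicate 2), 0 to 1 genes whose response differed between models and 0 to 1 lower genes in db/+ against Con+Veh. In that comparison 0 genes were called lower with edgeR or with transcript totals (which lack the main *H2-Aa* transcript) and 11 without a filter, where 14502 genes of 46963 were called lower, and 2 (*H2-DMa*, *H2-T24*) were called higher with the leukocyte covariate. Signs turned for *B2m* in db/db (-0.09 with GC correction, -0.21 with GC correction and the block, -0.05 with the leukocyte covariate), *H2-Aa* in db/db (-0.11 with transcript totals, which hold 1.63% of its counts, -0.08 with GC correction and the block, -0.08 without db/db replicate 2, with a range of -0.08 to 0.52 on leaving out each library) and *H2-Ab1* in db/+ against Con+Veh (-0.03 with GC correction, -0.07 and -0.04 without db/+ replicates 1 and 2, with a range of -0.07 to 0.37). The causes were not tested.

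Same-numbered libraries did not deviate together (mean r -0.080 in the db cohort and -0.108 in the STZ-HFD cohort, against 0.040 and 0.037 for other pairs), so the replicate numbers were not taken to pair mice. With each model fitted alone there is no value for comparisons between cohorts. Over all genes, edgeR called 0 genes in db/db, where limma called 208 higher and 73 lower. Genes of low level rest on few counts, such as *Tap2* and *Ciita*.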

Other observations

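The 28 MHC genes that did not pass the filter had 49 to 179 counts in all in each of 13 libraries and 356 counts in STZ-HFD replicate 1. *H2-Pa* had 1 count, in that library alone, and *H2-M10.5-ps1* had 0 counts in every library. Among interferon gamma targets, the summed level was 22.8 to 29.0 CPM in db/db, 27.4 to 51.2 CPM in db/+, 46.4 to 82.9 CPM in STZ-HFD and 46.2 to 74.2 CPM in Con+Veh, with overlap in each model.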
